A study of Mus musculus with 6 samples.

Results

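Immunoglobulin light chain variable (V) segments are the germline pieces that encode most of the antigen-binding domain of an antibody light chain. Here they were followed in ovarian RNA of female F4 inbred Swiss albino mice, 135 to 140 days old, sampled from 2 groups that differ in litter size, 3 samples labelled high (replicates 1, 3, 4) and 3 labelled low (replicates 1, 2, 5). All 6 samples share the strain, sex, age range and the estrous staging of the ovary, and litter size is the one difference the labels give. Libraries were made from polyadenylated RNA, and no agent or allele is named. Separate animals or pools are not named in the labels, so p-values here speak of sample-to-sample spread alone, some of which may be technical. Of 36727 rows in the table of estimated counts, 163 carried a symbol starting with Igkv or Iglv. The 75 segments with a summed count of at least 15 were kept, 72 of the kappa locus and 3 of the lambda locus.

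Each developing B cell cuts and joins a V segment to a joining (J) segment of the same locus, and RNA splicing attaches the constant region, Igkc for kappa chains and an Iglc gene for lambda chains. A mature B cell or plasma cell transcribes the rearranged segment, so segment levels follow both how many such cells a tissue holds and which clones they belong to. Plasma cells, which secrete antibody, hold far more of this RNA per cell than resting B cells. In a kappa symbol the first number is the sequence family, and the second gives the order along chromosome 6, counted from the J segments.

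The 88 segments left out carried 179 counts together, against 29089 on the 75 members. The nearest segments outside the minimum were Igkv4-71 with 13 counts and Igkv4-61 and Igkv3-9 with 12 each, and those just inside were Igkv3-2 with 17 and Igkv1-115 with 18. GENCODE M21 types 103 of the 163 as functional V genes, of which 73 were members, and 60 as V pseudogenes, of which 2 were members, Igkv1-108 with 26 counts and Igkv1-115. Of the 60 pseudogenes 42 had no count in any library. The typed pseudogenes held 89 counts in all.

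Coding sequences on GRCm38 were present in the GENCODE M21 transcripts for 73 of the 75 members, and each of the 73 held, in its last 60 coding bases, the in-frame pattern TANNNNTGN (forward strand, N any base). This is a codon starting TA (tyrosine or a stop), any codon, and a codon starting TG, and it covers the conserved cysteine that precedes the third antigen-contacting loop. The same pattern was in 102 of the 103 V segments with a coding sequence, 99.0%. The ends of 6 kappa members are shown because they led a library, shared most of their sequence with a leader, or were at 0 in most libraries. Iglv3 is added as the lambda member of lowest p. The end of Igkv13-85 is the same, base for base, as that of its neighbour Igkv13-84. Capitals mark the pattern, and bases after it lie where the V segment is trimmed and joined to J.
Igkv1-110: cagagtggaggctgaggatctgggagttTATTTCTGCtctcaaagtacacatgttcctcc
Igkv1-117: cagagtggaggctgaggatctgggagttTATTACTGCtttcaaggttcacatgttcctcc
Igkv15-103: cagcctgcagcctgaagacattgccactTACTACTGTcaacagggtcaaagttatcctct
Igkv14-126: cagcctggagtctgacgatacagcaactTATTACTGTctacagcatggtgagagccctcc
Igkv12-98: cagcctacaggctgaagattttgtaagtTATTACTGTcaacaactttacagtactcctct
Igkv13-85: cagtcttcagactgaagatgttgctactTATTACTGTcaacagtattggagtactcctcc
Iglv3: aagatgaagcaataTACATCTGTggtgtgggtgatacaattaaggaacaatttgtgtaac
On GRCm38 these lie at chr6:68271208-68271267 (plus strand), chr6:68121768-68121827 (plus), chr6:68437866-68437925 (plus), chr6:67896583-67896642 (plus), chr6:68571176-68571235 (plus), chr6:68930269-68930328 (minus) and chr16:19241207-19241266 (minus), in the order printed.

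Relatedness sets how surely a read can be given to 1 segment. Cut into words of 31 bases, the transcripts of the 75 members had a median of 57.4% of words found in no other light chain V segment, and the lowest was 13.0% for Igkv4-59. For 32 members under 50% of words were their own. Igkv1-110 shared 63.1% of its words with Igkv1-117, whereas Igkv15-103, Igkv19-93, Iglv3 and Igkv18-36 shared none. Igkv14-126 had 94.2% of words of its own and Igkv12-98 had 98.5%. How reads were divided among near copies is uncertain, and a sum over the locus does not depend on that division. The samples are not of the reference strain, and the effect of strain differences or of mutation in B cells on these counts was not tested.

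The lambda segments Iglv1 and Iglv2 are close copies, with 340 of 351 aligned coding bases identical (96.9%). Their last 120 coding bases show the 4 differences within that stretch, as capitals in Iglv2.
Iglv1: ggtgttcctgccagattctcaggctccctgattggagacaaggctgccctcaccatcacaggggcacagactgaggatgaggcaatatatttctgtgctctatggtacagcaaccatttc
Iglv2: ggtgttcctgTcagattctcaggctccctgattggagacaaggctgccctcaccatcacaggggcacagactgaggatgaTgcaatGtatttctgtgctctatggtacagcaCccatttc
They lie at chr16:19085017-19085136 and chr16:19260401-19260520, both on the minus strand. Of Iglv1 words 36.8% were shared with Iglv2.

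Library totals ran from 17620903 to 24758222 estimated counts. Markers of ovarian tissue were uneven. The 5 granulosa genes, among them Inha and Amh, summed to 12.9 to 24.0 CPM (counts per 1000000 of the TMM-normalized library total) in high replicates 1 and 3 and low replicate 2, and to 180 to 268 CPM in the other 3 libraries. The oocyte coat gene Zp3 was at 0 counts in high replicate 1 and low replicate 2, so a defining ovarian marker was not detected there. Zp2 was also at 0 in both. Other oocyte genes had low counts there, such as 8 and 17 for Gdf9 and 7 and 12 for Bmp15. Foxl2, one of the granulosa genes, had 21.4 and 21.6 CPM in these libraries, against 10.3 to 56.2 CPM elsewhere. High replicate 3 had 15820 CPM over 7 adipocyte genes, against 181 to 2248 CPM elsewhere. Steroid-making luteal genes (4) summed to 20.8 to 30.6 CPM in the same 3 libraries of low granulosa level and to 696 to 8454 CPM in the others, and oocyte genes (7) to 1.53 to 3.62 and 14.5 to 68.9 CPM. Oviduct genes (5) were highest in high replicate 4, at 1549 CPM, and low replicate 5, at 466 CPM, against 42.3 to 163 CPM elsewhere. The sum of 4 keratinised epithelium genes followed the groups. It was 160, 89.5 and 442 CPM for high and 9.92, 14.2 and 2.84 CPM for low litter size. With edgeR 0 of 4 passed and 4 had an unadjusted p under 0.05, where 14.4% of all genes did. With DESeq2 3 passed, against 6.56% of all genes. Krt14 alone overlapped between groups, with 1.62 CPM in high replicate 3 and 6.06 CPM in low replicate 1. Uterine markers (6 genes) ran, as a sum, from 659 CPM in high replicate 1 to 20180 CPM in low replicate 1. Ltf (14120 CPM) and Lcn2 (5172 CPM) made up most of the sum in low replicate 1. Hoxa10, Hoxa11 and Hoxd10 of that list were instead highest in high replicate 1, at 292, 205 and 49.2 CPM. In low replicate 1 they had 65.3, 41.6 and 18.5 CPM. These libraries are kept as labelled, and results that rest on one of them are given without it as well.

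Summed over the 75 segments, light chain V RNA stood at 311, 111 and 74.4 CPM for high litter size (replicates 1, 3, 4, an order kept throughout). Low litter size gave 216, 252 and 438 CPM (replicates 1, 2, 5). The highest library was low replicate 5 and the lowest high replicates 3 and 4, but high replicate 1 lay above low replicates 1 and 2, so the groups overlapped. Means were 166 ± 127 CPM for high and 302 ± 119 CPM for low litter size (SD, n = 3), and mean log2 CPM differed by -1.07, high minus low. An exact two-sided permutation test over samples gave p = 0.3, where 0.1 is the smallest that 3 against 3 can give, and 0.45 after Benjamini-Hochberg adjustment over the 6 light chain summaries tested. Without high replicate 1 the difference was -1.67, and without high replicate 4 it was -0.66. The granulosa level was low in 2 high libraries and 1 low library. Keratinised epithelium genes, as a sum, were higher in all 3 high libraries. The part of uneven tissue content in the light chain V level was not tested. In bulk RNA fewer antibody-secreting cells and less RNA per cell cannot be told apart.

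Igkc, Jchain and Igha ordered the libraries much as the segments did. Other heavy chain constant genes did not, with Ighm highest in high replicate 3 (235 CPM) and Ighg2c in low replicate 2 (70.3 CPM). Ighg1 and Ighg2b were highest in high replicate 1 (90.7 and 76.4 CPM). Igkc, the kappa constant gene, had 362, 135 and 72.8 CPM across the high libraries, against 221, 273 and 439 CPM across the low libraries. Jchain, the peptide that links IgA and IgM into polymers, had 346, 112 and 94.6 CPM and 291, 347 and 508 CPM. Igha, the constant gene of IgA, had 553, 104 and 114 CPM and 438, 513 and 1147 CPM. In each of these 3 genes, as in the V sum, low replicate 5 was highest and high replicates 3 and 4 were lowest. None passed with edgeR (log2 fold changes, high minus low, of -0.71 with SE 0.60 for Igkc, -1.05 with SE 0.55 for Jchain and -1.44 with SE 0.76 for Igha; adjusted p = 0.636, 0.436 and 0.442).

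**Figure D1:**
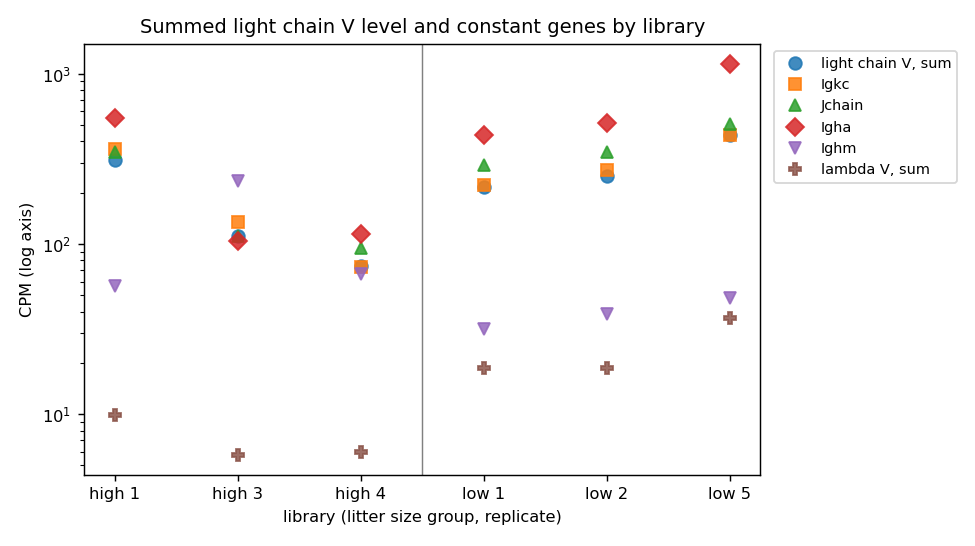
Level of the summed light chain V segments, of the lambda segments alone and of 4 other antibody genes in CPM (log axis) in each of the 6 libraries, named by litter size group and replicate. The V sum runs from 74.4 to 438 CPM and lies near Igkc and Jchain in every library, while Ighm is highest in high replicate 3, at 235 CPM.

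Kappa V counts were below Igkc counts in each library. Their ratio was 0.832, 0.783 and 0.939 across the high libraries, against 0.891, 0.856 and 0.912 across the low libraries. Scaled per kb of exon, which corrects for the 532 bases of Igkc, it was 1.21 ± 0.113 across high litter size, against 1.24 ± 0.0404 for the low group (SD, n = 3). The 12 plasma cell genes summed to 658 to 1014 CPM across high litter size, against 1051 to 1311 CPM across the low libraries. Jchain, given above, and Xbp1 made up much of the sums, but in high replicate 4 Sdc1 was the highest of these genes, at 317 CPM. Xbp1 overlapped between groups, with 288 to 396 CPM for high against 342 to 444 CPM for low litter size. Epithelial cells also express several of these genes, Xbp1 and Sdc1 included. The 7 genes of pre-B cells and of light chain rearrangement summed to 0.873 to 2.29 CPM in 5 libraries and to 7.42 CPM in high replicate 4, the library of lowest V sum. In that list the recombinase subunits Rag1 and Rag2 had 0 to 3 and 7 to 32 counts per library, Vpreb3 had 98 counts in high replicate 4 and 6 to 13 elsewhere, and Vpreb2 was at 0 in every library. With edgeR 0 of the 11 plasma cell genes tested passed (3 at an unadjusted p under 0.05, 2 with DESeq2), with 3 above 0 and 8 below. Light chain constant genes gave 0 of 3 (1 unadjusted, 1 with DESeq2), all below 0, and heavy chain constant genes 0 of 7 (1 unadjusted, 0 with DESeq2), 2 above and 5 below. Over all genes, 14.4% had an unadjusted p under 0.05 with edgeR and 44.7% a fold change below 0, while 6.56% passed with DESeq2. The 8 T cell genes summed to 13.4 to 28.7 CPM and the 3 octamer factor genes, which act on antibody gene promoters, to 38.7 to 53.6 CPM. With edgeR 0 of 8 T cell, 0 of 3 octamer factor and 0 of 2 tested pre-B genes passed, with 0 at an unadjusted p under 0.05 and 0 with DESeq2 in each.

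Usage, the percentage of a library's light chain V counts on a segment, was spread widely. The 5 members of highest mean CPM held 36.0% of all member counts and the first 20 held 78.2%. Exons of members are 298 to 501 bases long, and all of the first 20 by CPM were also the first 20 per kb of exon. The effective number of segments, the exponential of the Shannon entropy of usage, was 31.6, 31.4 and 31.1 across high litter size, against 31.6, 30.0 and 31.3 across the low libraries. It differed by 0.42 between group means (31.38 ± 0.230 against 30.95 ± 0.885; SD, n = 3; exact permutation p = 0.7, adjusted p = 0.7), and its sign changed with the setting, to -0.17 per kb of exon. High libraries 3 and 4 had fewer segments above 0 (65 and 64) than the other libraries (69 to 74). Thinned to the 1485 counts of the smallest library, 63.1 to 69.0 segments would be seen in each.

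Igkv1-110 (ENSMUSG00000093861, chromosome 6, 68270485 to 68271267, GRCm38), of the largest kappa family by usage, had the highest mean level per length, 58.1 CPM per kb. Its CPM was 38.3, 7.05 and 6.72 across high litter size, against 25.7, 27.5 and 34.4 across the low libraries, so that the high group held both the highest and the lowest values. It led in high replicate 1 (12.3% of light chain V counts, Wilson 95% interval 11.5 to 13.2), low replicate 1 and low replicate 2. Igkv15-103, at 48.4 CPM per kb, had 21.7, 4.12 and 7.22 CPM and 22.4, 15.6 and 37.9 CPM. It led in high replicate 4 (9.70%, interval 8.29 to 11.3) and low replicate 5 (8.65%, interval 8.14 to 9.18). Intervals cover counting error only, and amplified reads are not independent molecules.

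Igkv10-96 had 22.9, 6.05 and 2.91 CPM across high litter size, against 10.6, 12.5 and 36.0 CPM across the low libraries. Igkv12-44 had 19.3, 3.18 and 2.66 CPM and 4.73, 26.5 and 23.7 CPM, and in low replicate 2 it took 10.5% of light chain V counts against a median of 3.57% over the other libraries. Igkv6-20 had 23.1, 5.30 and 4.56 CPM and 8.42, 18.3 and 19.9 CPM. In all 3 the high group's top library, replicate 1, lay above at least 1 low library. Igkv10-96 repeated the order of libraries of the V sum, and the other 2 departed from it. Of the 20 leading segments 13 were highest in low replicate 5, 3 in high replicate 1 and 2 in each of low replicates 1 and 2, and 13 were lowest in high replicate 4.

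The share of the leading segment overlapped between groups (11.3 ± 1.43% across high litter size, against 10.5 ± 1.66% for the low group; SD, n = 3; exact permutation p = 0.5, adjusted p = 0.6). Usage in pairs of libraries, as the sum over segments of the smaller of the 2 percentages, overlapped by 61.7 to 76.3% within groups (6 pairs) and by 60.7 to 79.1% between groups (9 pairs). The 5 pairs with high replicate 3 had the lowest median overlap, 61.9%, against 68.7 to 76.1% for the pairs of each other library.

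**Figure D2:**
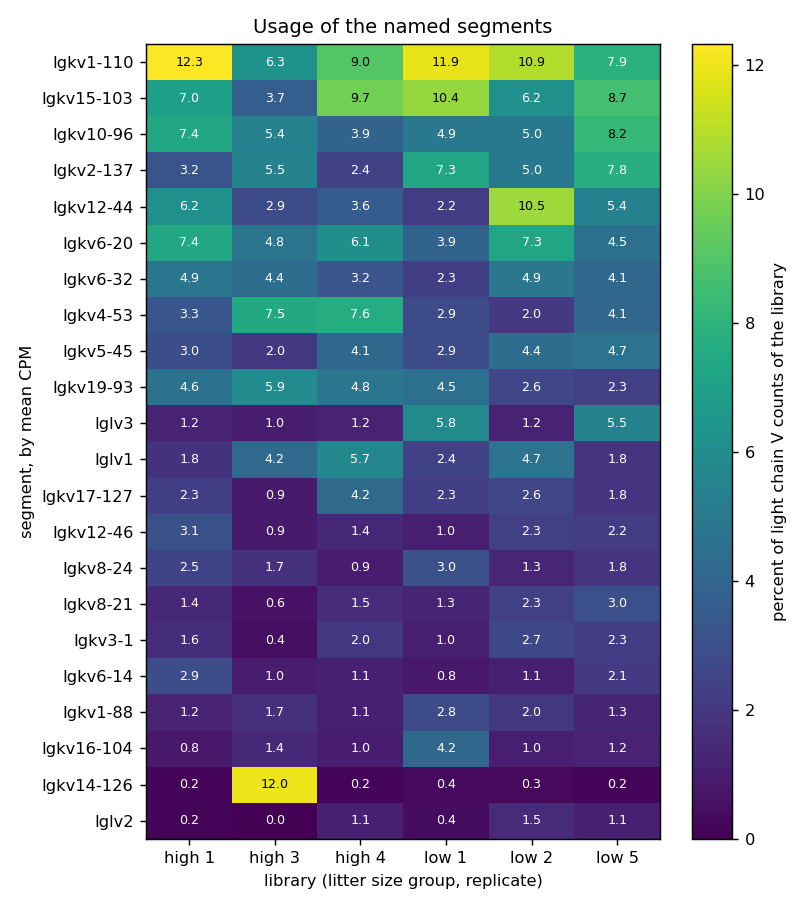
Percentage of each library's light chain V counts on the 22 named segments, rows ordered by mean CPM and columns by library. Igkv14-126 takes 12.0% in high replicate 3 and at most 0.4% in the other 5 libraries, and Iglv3 takes over 5% in low replicates 1 and 5.

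High replicate 3 was set apart by Igkv14-126 (chromosome 6, 67896172 to 67896642). Its counts were 11, 214 and 3 across high litter size, against 14, 15 and 25 across the low libraries, so that it was the leading segment of high replicate 3 (12.0%, Wilson 95% interval 10.6 to 13.6). The fitted log2 fold change of 2.43 (SE 1.46, edgeR adjusted p = 0.498) rested on that library and was -1.26 without it. Igkv14-126 is known as the light chain partner of the heavy chain segment Ighv11-2 in a recurrent antibody of B-1 cells, an IgM-producing lineage of body cavities, which binds phosphatidylcholine. Ighv11-2, looked up after these values were seen, had 0, 78 and 0 counts across high litter size, against 11, 16 and 48 counts across the low libraries, which is 6.72% of heavy chain V counts in high replicate 3 and at most 0.544% in any other library. Ighm, the constant gene of IgM, had 56.3, 235 and 66.6 CPM across high litter size, against 31.5, 38.8 and 48.3 CPM across the low libraries. Bulk counts do not show which chains pair in a cell, and a B-1 origin of these reads was not tested. High replicate 3 also had the highest adipocyte marker level, and the part of tissue content in these values was not tested.

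Igkv6-25 also departed in high replicate 3, with 47 counts there and 0 to 6 elsewhere. Igkv2-112 departed in high replicate 4, with 65 counts, or 4.38% of light chain V counts, against a median of 0.373% over the other libraries. Igkv16-104 took 4.17% in low replicate 1 against a median of 1.014%. These segments were singled out after their values were seen, as large departures of a library from the median of the others.

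Of the 75 members 55 had counts in all 6 libraries. Only 3 were at 0 in 3 or more libraries. Igkv12-98 had 8 counts in high replicate 3 and 28 in low replicate 1 and Igkv13-85 had 7 and 44, and both were at 0 in the same 4 libraries, low replicate 5 with its 11248 light chain V counts included. A count of 0 there allows a usage of up to 0.0267%, while usage in low replicate 1 was 0.748% for Igkv12-98 and 1.18% for Igkv13-85. Igkv3-4 was at 0 in high replicates 1 and 4 and low replicate 2, and had 11, 25 and 40 counts in high replicate 3 and low replicates 1 and 5. Igkv13-85 shares 52.7% of its words with Igkv13-84, which had counts in 5 libraries, whereas Igkv12-98 has nearly all words of its own.

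Along the kappa locus members lay from 18.4 kb (Igkv3-1) to 3166 kb (Igkv2-137) from Igkj1, the first J segment (chromosome 6, 70722562 to 70722599). Segments on the strand of Igkc join by deleting the DNA between, and those on the opposite strand by inverting it. The 32 members in the same orientation took 40.8, 47.3 and 47.8% of kappa V counts across high litter size, against 55.1, 44.7 and 44.2% across the low libraries. The 40 in the opposite orientation took the rest. By distance, the 26 members over 2 Mb away, 36.1% of kappa members, took 43.9 to 56.7% of kappa V counts over the 6 libraries. The 31 within 1 Mb, 43.1% of kappa members, took 29.2 to 47.3%, and the 15 between took 8.85 to 19.6%. None of these 4 shares passed an exact permutation test over samples (p from 0.2 to 0.9, adjusted p from 0.8 to 0.9 over 4 tests). Low replicate 1 had the highest distal and the lowest proximal share.

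**Figure D3:**
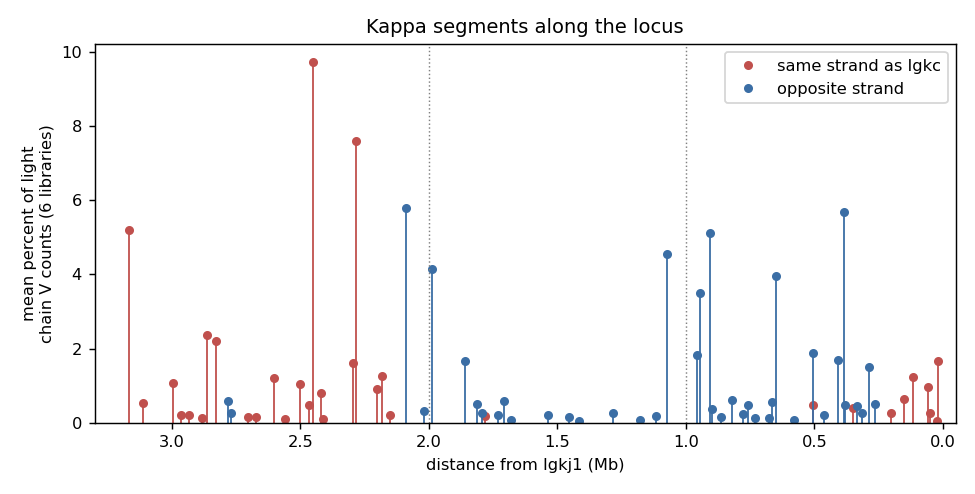
Mean usage over the 6 libraries (percentage of light chain V counts) of the 72 kappa members against distance from Igkj1 in Mb, coloured by strand relative to Igkc, with dotted lines at 1 and 2 Mb. The 2 most used segments, Igkv1-110 and Igkv15-103, lie over 2 Mb away on the strand of Igkc, and the stretch between 1 and 2 Mb holds few used segments.

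By family, Igkv1 (10 members of 13 segments) had the largest mean usage, 16.02%, from 11.3 to 19.6% over libraries, followed by Igkv6 (8 members of 9) with 13.0%. The single member of Igkv15 took 7.60%. Igkv4, with 33 segments the largest family by number, had 11 members that took 6.89%, from 3.40% in low replicate 2 to 11.2% in high replicate 4. The Igkv4 share was 6.23, 10.6 and 11.2% across high litter size, against 4.25, 3.40 and 5.66% across the low libraries, which do not overlap. Of 21 families 3 had shares that did not overlap between groups. Among all genes tested 19.5% did not overlap in CPM, a different measure, in either direction. Igkv19, with 4.63, 5.94 and 4.85% against 4.49, 2.64 and 2.34%, was the other with the higher share for high litter size, and Igkv8, with 4.76, 3.47 and 3.91% against 4.999, 5.03 and 6.09%, had the lower. These shares were compared after the values were seen and were not tested. Igkv4-53 was the Igkv4 member of highest level, with 10.3, 8.36 and 5.66 CPM across high litter size, against 6.17, 5.11 and 17.8 CPM across the low libraries.

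Lambda chains are rare in mice, and 3 V segments supply them. Lambda V counts made up 3.17, 5.15 and 8.08% of light chain V counts across high litter size, against 8.69, 7.41 and 8.44% across the low libraries (5.47 ± 2.47 against 8.18 ± 0.675%; SD, n = 3). High replicate 4 lay within the low group, and the exact permutation p was 0.2 (adjusted p = 0.45). High replicate 1, with a Wilson 95% interval of 2.76 to 3.64%, was the lowest, and without high replicate 1 the difference of -2.71 points was -1.56. As a level, lambda V was 9.85, 5.74 and 6.02 CPM across high litter size, against 18.7, 18.7 and 36.9 CPM across the low libraries, and the groups did not overlap (mean log2 CPM 1.75 lower in the high group). The exact permutation p of 0.1 is the smallest possible here, 0.45 after adjustment over the 6 summaries. Without Iglv3 the difference was -1.02 (exact permutation p = 0.2).

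Iglv3 (ENSMUSG00000076939, chromosome 16, 19241207 to 19241690) had counts of 72, 17 and 18 across high litter size, against 218, 57 and 619 across the low libraries, or 3.67, 1.06 and 0.902 CPM and 12.6, 3.04 and 24.1 CPM. High replicate 1 lay above low replicate 2, so the groups overlapped. The log2 fold change was -2.81 (SE 0.90), with an adjusted p of 0.272 by the edgeR quasi-likelihood test and 0.0195 by DESeq2. With each library left out in turn, the edgeR fold change of Iglv3 ran from -3.77 to -2.05. Iglv1 had 5.66, 4.68 and 4.26 CPM across high litter size, against 5.25, 11.8 and 8.02 CPM across the low libraries (log2 fold change -0.78, SE 0.39, edgeR adjusted p = 0.415; -0.45 without low replicate 2). Iglv2 had 10, 0 and 17 counts across high litter size, against 16, 72 and 124 counts across the low libraries. As shares of lambda V counts, Iglv3 held 67.1% in low replicate 1 and 65.2% in low replicate 5, against at most 37.3% in the other 4 libraries, where Iglv1 led with 57.5 to 81.5%.

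In the mouse, Iglv2 and Iglv3 are joined mostly to the constant gene Iglc2, and Iglv1 to Iglc1 or Iglc3. Summed Iglv2 and Iglv3 counts were 82, 17 and 35 across high litter size, against 234, 129 and 743 across the low libraries, beside 83, 16 and 15 and 194, 130 and 533 counts of Iglc2. Both sums were highest in low replicate 5 and lowest in high replicates 3 and 4. Per kb of exon the ratio of V to constant was 1.59 to 3.82. Iglv1 counts were 111, 75 and 85 and 91, 222 and 206, beside 17, 23 and 28 and 16, 79 and 133 for Iglc1 and Iglc3 together, a ratio per kb of 1.80 to 7.57. The lambda constant genes are close copies of each other, so the split between them is uncertain. The fitted change of Iglc2 was -2.69 on the log2 scale (SE 0.79, edgeR adjusted p = 0.245).

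In the test of every gene between litter size groups, 49 of the 75 members (46 kappa, 3 lambda) had enough counts to be tested, with sums of 61 to 2844. The 26 others had sums of 17 to 153. By the edgeR quasi-likelihood test 0 of 49 passed an adjusted p of 0.05, where 1 of 16455 genes (0.00608%) passed. The lowest adjusted p among members was that of Iglv3. At an unadjusted p under 0.05 there were 5 members, 10.2% of those tested, all lower in the high group, against 14.4% of all genes in either direction and 7.82% lower. DESeq2 called 1 of the 40 members to which it gave an adjusted p, Iglv3, against 6.56% of all genes in either direction and 4.3% lower, and the edgeR likelihood ratio test and limma voom called 0.

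Fitted fold changes of the members leaned to lower values in the high group. Of 49 tested, 40 were below 0 and 9 above, with a median log2 fold change of -1.01, against 44.7% below 0 and a median of 0.068 over all genes. Segments of a library come from the same cells and are not independent, and the lean has the size of the difference in the V sum. Its size changed with single libraries. Without high replicate 1 the median was -2.09 and 25 of 52 tested members had an unadjusted p under 0.05, against 15.2% of all genes then, while 0 passed adjustment (lowest adjusted p = 0.205). Without low replicate 5 the median was -0.52, without high replicate 4 it was -0.56, and 69.8 and 70.5% of tested members were below 0.

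The high libraries lay entirely below the low libraries for 4 of the 49, where 10.8% of all genes did, and entirely above for 0 (19.5% of all genes in either direction). The 4 were Igkv2-137, Igkv16-104, Igkv1-88 and Iglv2. Igkv2-137 (chromosome 6, 67555497 to 67556216), the member farthest from the J segments, had 9.95, 6.11 and 1.80 CPM across high litter size, against 15.7, 12.6 and 34.0 CPM across the low libraries (log2 fold change -1.80, SE 0.67, edgeR adjusted p = 0.318). Igkv16-104 had 2.55, 1.56 and 0.752 CPM and 8.997, 2.56 and 5.18 CPM (log2 fold change -1.78). High replicate 1 and low replicate 2 almost met, and in counts, at 50 and 48, their order was reversed. Igkv1-88 had 3.73, 1.87 and 0.802 CPM and 6.06, 5.01 and 5.68 CPM (log2 fold change -1.38, edgeR adjusted p = 0.347; -2.09 without high replicate 1). For Iglv2 the log2 fold change was -2.78 (SE 1.14, edgeR adjusted p = 0.34). High replicate 4, at 0.852 CPM, and low replicate 1, at 0.923 CPM, almost met. Their Iglv2 counts, 17 and 16, had the reverse order, so the lack of overlap depends on the scaling. Among the 9 with values above 0, Igkv4-86 had 0.99 and Igkv7-33 0.60, and neither passed.

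The other leading members had fold changes between -1.80 and -0.11 that did not pass. They were -0.75 for Igkv1-110, -1.20 for Igkv15-103, -0.89 for Igkv10-96, -1.13 for Igkv12-44, -0.50 for Igkv6-20, -0.65 for Igkv6-32 and -1.38 for Igkv5-45. Without high replicate 1 all 7 were lower, from -2.66 for Igkv12-44 to -1.67 for Igkv6-20. Other libraries left out brought several near 0, with -0.37 for Igkv1-110 (without high replicate 3), -0.15 for Igkv6-20 (without high replicate 4), and -0.12 for Igkv10-96 and -0.21 for Igkv6-32 (without low replicate 5). The smallest were Igkv4-53 with -0.26 and Igkv19-93 with -0.11. Without low replicate 5 Igkv4-53 had 0.52. Igkv19-93 had 14.4, 6.61 and 3.61 CPM across high litter size, against 9.69, 6.66 and 10.2 CPM across the low libraries. Further down, Igkv17-127 had -0.80, Igkv12-46 -0.61, Igkv8-24 -0.80, Igkv8-21 -1.80, Igkv3-1 -1.43 and Igkv6-14 -0.32, which was 0.70 without low replicate 5. Without high replicate 1 the first 5 of these ran from -2.97 for Igkv8-21 to -1.64 for Igkv17-127, and without low replicate 5 Igkv12-46 had -0.06. Igkv3-1, the segment nearest to the J segments among the members, had 4.95, 0.499 and 1.504 CPM and 2.19, 6.71 and 9.89 CPM.

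**Figure D4:**
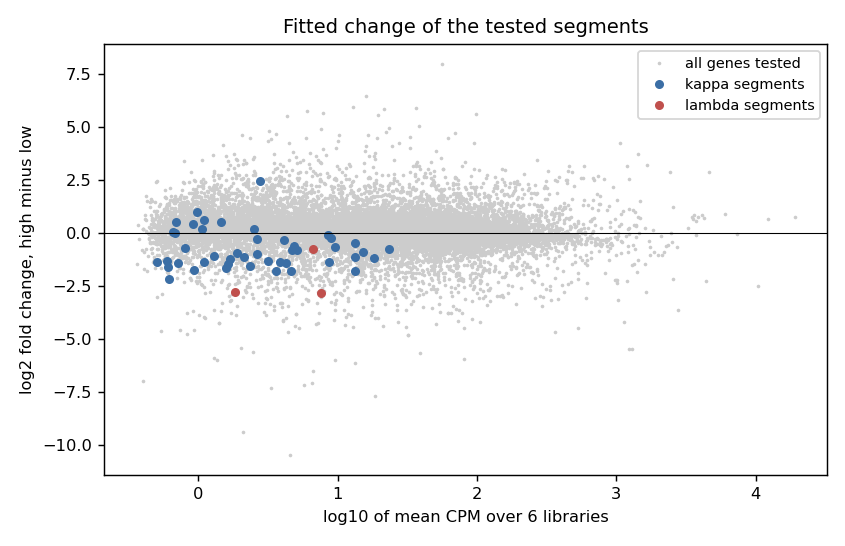
Fitted log2 fold change, high minus low, against the log10 of the mean CPM over 6 libraries, for all 16455 genes tested (grey), 46 kappa (blue) and 3 lambda segments (red). Of the 49 segments 40 lie below 0, and none passed the edgeR test after adjustment.

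Set beside heavy chain V segments, light chain V counts were 2.31, 1.54 and 2.77 times heavy chain V counts across high litter size, against 0.735, 0.941 and 1.28 times across the low libraries, with no overlap (2.21 ± 0.620 against 0.984 ± 0.273; SD, n = 3; exact permutation p = 0.1, the smallest possible, and 0.15 adjusted over 3 ratios). Heavy chain V counts (185 segments) per heavy constant count were 0.167, 0.174 and 0.136 across high litter size, against 0.524, 0.374 and 0.265 across the low libraries (0.159 ± 0.0203 against 0.388 ± 0.130; SD, n = 3; exact permutation p = 0.1, adjusted 0.15). The corresponding light chain ratio, V over constant, was 0.847, 0.811 and 0.993 across high litter size, against 0.924, 0.889 and 0.941 across the low libraries, and the low group lay inside the range of the high group (0.884 ± 0.0961 against 0.918 ± 0.0267; SD, n = 3; exact permutation p = 0.6, adjusted 0.6). Leaving out Ighv1-9 gave 1.18 for the difference of the light over heavy V ratio in place of 1.22. The choice of these 3 ratios followed a look at the data, and they compare counts, not levels per length.

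**Figure D5:**
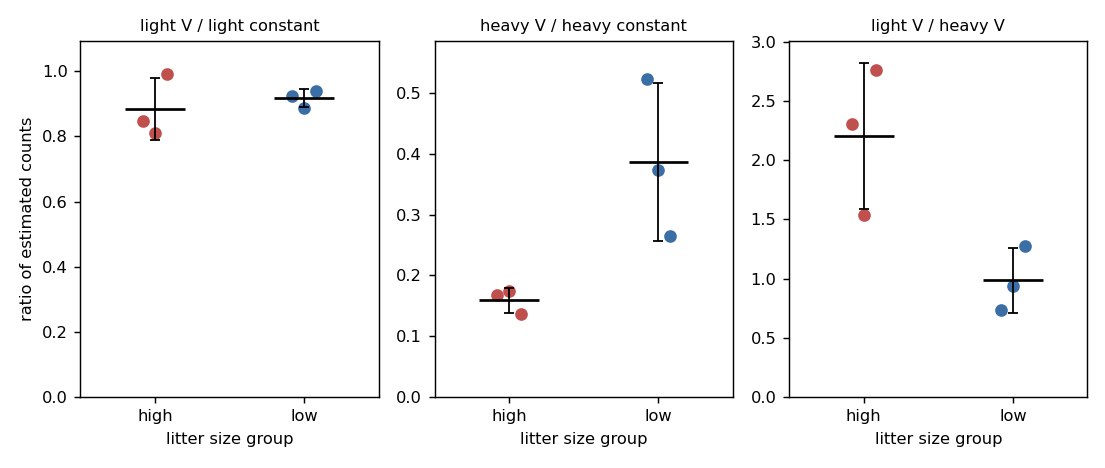
Ratios of estimated counts in the high (red) and low (blue) litter size groups, 3 libraries each, as points with mean and SD in black, for light V over light constant, heavy V over heavy constant and light V over heavy V. The light chain ratio overlaps between groups, at 0.811 to 0.993 against 0.889 to 0.941, while the other ratios do not overlap.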

How the data were processed

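The authors deposited estimated counts per gene, as whole numbers. Trim Galore, kallisto, DESeq2 and GRCm38 are named in the submitters' processing notes, without versions or roles. The deposited counts were read as kallisto estimates rounded to whole numbers, a step no source names, and the annotation release is likewise unnamed. Gene names were looked up in a table of Ensembl IDs, and 35869 of 36727 matched. Coordinates, types, exon lengths and transcript sequences are from GENCODE M21 on GRCm38.

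Genes passing filterByExpr (minimum count 10, minimum total 15) were TMM-normalized and tested with the edgeR 4.0.16 quasi-likelihood F test (R 4.3.3), high minus low, without covariates, with Benjamini-Hochberg adjustment over all 16455 genes and a threshold of 0.05. DESeq2 1.42.0 and limma 3.58.1 were alternatives, and 822 adjusted p-values undefined in DESeq2 stayed so. The test was also run on simulated counts, drawn independently for each gene at a single dispersion of 0.219. Segments of a library are not independent, so that run does not speak to the members, and no result here rests on it. Sums, shares and ratios per library were tested by exact two-sided permutation over samples, in Python 3.11.15. Alternatives were these tools, other scalings and low-count filters, and each library left out in turn. The members, lists and tests were chosen with earlier results of these data known. Named segments were the 20 of highest mean CPM, up to 5 in each direction of smallest p without group overlap, each library's leader and all Iglv members. Other names were chosen after their values were seen. A marker list is not reported here.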

Additional observations from a re-analysis of the deposited data

How the results depend on the processing

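No paired analysis was possible because just 1 replicate number occurs in both groups, and the labels give no batch. Over the planned settings the sums of all, kappa and lambda V segments stayed lower in the high group. With each library left out in turn, the difference in mean log2 CPM ran from -1.67 to -0.66 for all segments, -1.65 to -0.60 for kappa and -2.01 to -1.42 for lambda. RLE or library-size scaling moved none of these by over 0.01. The count of genes called, 1 in the edgeR test, was 1026 with DESeq2, 631 with the likelihood ratio test, 3 with limma voom and 2 with library size alone, and 0 to 1 with a library left out. Members called were 1 with DESeq2 and 0 in every other setting. The difference in effective number, 0.42, reversed to -0.17 per kb of exon and to -0.21 with a count sum of at least 100, and ran from -0.079 to 0.76 with a library left out. A separate measure of diversity planned in its place, the number of segments expected at the smallest total, differed by -1.76 segments. The difference in leading share ran from -0.061 to 1.67 points, and that of light V over light constant from -0.089 to 0.0017. With a library left out, light over heavy V differed by 0.94 to 1.55 and heavy V over heavy constant by -0.29 to -0.16. Log2 fold changes that changed sign with a library left out were those of Igkv4-53 (-0.57 to 0.52), Igkv19-93 (-0.82 to 0.22), Igkv6-14 (-2.27 to 0.70) and Igkv14-126 (-1.26 to 2.95). The latter was 0.20 with limma voom. Those of other named kappa segments kept their sign with a library left out, but most moved by over 1.5 times. The range was -2.43 to -1.25 for Igkv2-137, -2.29 to -1.255 for Igkv16-104 and -3.59 to -2.22 for Iglv2. Members at an unadjusted p under 0.05 numbered 1 to 25 with a library left out. Without the 3 libraries of low granulosa markers, chosen after the data were seen, 1 high library remained and the difference of the V sum was -2.05, a value with no test. The cause of these changes was not tested. High replicates 3 and 4 had 1785 and 1485 light chain V counts, so that a segment at 0 there allows a usage of up to 0.168 and 0.202%.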

Other observations

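Among heavy chain constant genes, high replicate 3 held both the highest Ighm count, 3765, and the lowest Igha count, 1675, while low replicate 5 held 29470 Igha counts. The IgG genes Ighg1 and Ighg2b were highest in high replicate 1 (90.7 and 76.4 CPM), and Ighg2c was highest in low replicate 2 (70.3 CPM, against 5.26 to 24.8 CPM in the others). Pigr, the epithelial receptor that carries polymeric IgA across mucosa, had 70.8, 58.1 and 453 CPM for high litter size (replicates 1, 3, 4) and 1446, 881 and 277 CPM for low litter size (replicates 1, 2, 5). Uterine markers summed to 659, 1004 and 5246 CPM and to 20180, 8180 and 4972 CPM in the same order. That sum was highest in low replicate 1, as Pigr was. Ltf and Lcn2 made up most of it there, while Hoxa10, Hoxa11 and Hoxd10 were highest in high replicate 1. The part of uterine tissue in the Pigr level was not tested. Neither Pigr nor any of the heavy chain constant genes named here passed the edgeR test between groups (adjusted p from 0.309 to 0.948). The 5 genes of mucosal antibody transport and homing, Pigr among them, had 2 fold changes above 0 and 3 below, and 0 passed (0 at an unadjusted p under 0.05, 0 with DESeq2).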
